A study of Mus musculus with 7 samples.

Results

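Described here are 10 genes that set the pace of G1, out of 21938 protein-coding genes of the annotation. They are the D-type cyclins *Ccnd1*, *Ccnd2* and *Ccnd3*, the kinases *Cdk4* and *Cdk6*, the inhibitors *Cdkn2c*, *Cdkn2d*, *Cdkn1a* and *Cdkn1b*, and the pocket protein gene *Rb1*. The genes were chosen by name, with earlier results of these data known, and the rule itself uses no measured value. Everything reported is the position and strength of H3K27-Ac, a histone mark of active promoters and enhancers, around them.

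The study asked why *Cdkn2ab* knockout mice develop skin carcinomas on some genetic backgrounds, and profiled H3K27-Ac by ChIP-seq in 3 tumour cell clones. All 3 clones carry the *Cdkn2ab*-/- genotype, which removes p15Ink4b, p16Ink4a and p19Arf, on an FVB/129P2 backcross background, and there is no treated or wild-type group. Each clone was grown from a separate skin tumour and selected for growth in soft agar, so each list stands for a single selected line and not for a tumour. Age and sex of the animals are not given in the sources used here. Peaks were called on 1 H3K27-Ac library each for clones 1 and 2 and on 2 pooled libraries for clone 3. The labels place the IgG controls with clones 1 and 3. Which control stands behind the list of clone 2 is not given in the sources used here, so its fold enrichments rest on a background of unknown source.

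D-type cyclins bind CDK4 and CDK6, and the active kinases phosphorylate RB1, which then releases E2F factors that switch on S phase genes. INK4 inhibitors bind CDK4 and CDK6 directly and keep the cyclin away, whereas CIP/KIP inhibitors bind assembled cyclin and kinase complexes and act mainly on CDK2. The *Cdkn2ab* locus encodes a pair of the INK4 inhibitors, so cells without it are left with the INK4 and CIP/KIP genes at other loci.

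The lists of clones 1, 2 and 3 hold 29182, 49587 and 29277 peaks, where the median summit has 37, 34 and 53 ChIP reads and none has fewer than 13, 12 and 25. Clone 2 stands apart with 1.70 times the peaks of clone 1, so the counts are given with it and without it. The fold enrichment of a peak is the ChIP pileup, scaled by the caller, over the local background at its summit, each plus 1, and it was compared only within a list. The local background on the members' chromosomes was 0.960 to 1.06 times that of the median autosome. By promoter peaks, the keratinocyte and hair follicle markers went only in part with the labelled skin carcinoma origin. Of 10 such genes, *Sox9* and *Cdh3* had a promoter peak in every clone, *Krt14* only in clone 1, *Krt15* only in clone 2 and the other 6 in none. Away from promoters, *Trp63* had 6, 10 and 10 peaks inside the gene in clones 1, 2 and 3, and *Cdh1* 4, 8 and 2. *Krt5*, *Krt17*, *Lef1* and *Epcam* had no peak inside the gene. The endothelial marker *Pecam1* also had 2, 6 and 4 such peaks. Of 8 fibroblast and dermal markers, a promoter peak was found for 4 in every clone and for 4 in some. No immune, endothelial or muscle marker had a promoter peak in any clone. Of 3 melanocyte markers *Mitf* and *Pmel* had one in all clones, the latter at a promoter shared with *Cdk2*.

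Each of the 10 members carried H3K27-Ac at a promoter, meaning a peak no more than 1 kb from an annotated start, in all 3 clones. The same held for 46.5% of all protein-coding genes, and in clones 1, 2 and 3 on their own for 49.8%, 56.9% and 48.1% of them. The count is then 10 in any pair of clones by necessity, so leaving out clone 2 is no further check on it. In 7 of the members a peak lay over a start base in all clones, against 39.1% of all genes; *Ccnd2*, *Cdkn2d* and *Cdkn1a* were the exceptions. By fold enrichment the members were ordinary among genes with a promoter peak. The strongest promoter peak was above the median promoter of its list for 7 members in clone 1, 5 in clone 2 and 3 in clone 3. Only *Cdk4* and *Cdkn1a* were above it in all clones, or 2 of 10 members. Of all genes 3746 were, or 17.1%, but only the 10209 genes marked at a promoter in every clone could be. The 17.1% is therefore too low a yardstick for the members, all of which were so marked.

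The width of the marked promoter set the members apart more than its height. The bases under promoter peaks exceeded the median promoter of the list in all 3 clones for 9 of 10 members, *Cdkn2d* being the exception. The same held for 3840 of all genes, or 17.5%, where again only the 10209 genes marked at a promoter in every clone could reach it. The median member had 2662.5, 2733 and 2011 bp under promoter peaks in clones 1, 2 and 3, where the median gene with a promoter peak had 1397, 1488 and 1255 bp. The 9 of 10 rests on sums over peaks and starts. The strongest promoter peak alone was narrower than that median for *Cdk4* in clones 1 and 3, with 1255 and 794 bp. In clone 3 the same held for *Ccnd3* (1147 bp), *Cdkn1b* (1149 bp) and *Rb1* (1219 bp). The sum of *Rb1* also includes the peak at the start of *Lpar6*. As a percentile among all protein-coding genes, the median member stood at 92.6 ± 1.5 by bases (SD, n = 3 clones) and at 73.4 ± 5.5 by fold enrichment. The members had a median of 5.5 annotated starts and genes with a promoter peak 5, and more starts let more bases count. With the bases at the outermost start only, the percentile was 86.4 ± 5.0, and with the width of the single strongest peak 90.8 ± 7.6. These last measures were added after the value by bases had been seen. What sets the width was not tested.

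**Figure D1:**
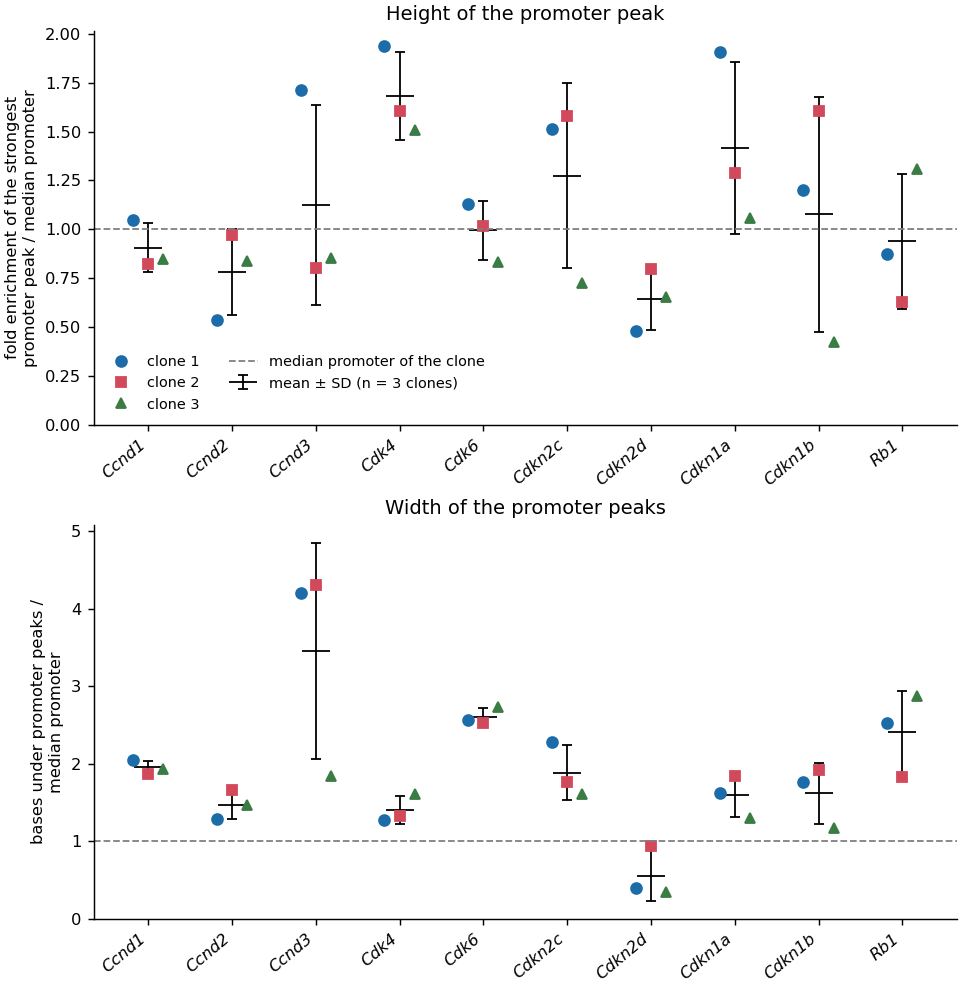
Strongest promoter peak by fold enrichment (top) and bases under promoter peaks (bottom) of the 10 members, each divided by the median over all protein-coding genes with a promoter peak in that clone (no unit). Coloured points are clones 1 to 3, the black bar and whiskers are mean ± SD over 3 clones, and the dashed line is the median promoter. In height the members fall on both sides of the line, with *Cdk4* at 1.51 to 1.94. In width summed over promoter peaks all but *Cdkn2d* lie above it in every clone.

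*Cdk4*, a catalytic partner of the D cyclins, had the highest promoter peak among the members. Its strongest promoter peak had 165, 295 and 111 ChIP reads in clones 1, 2 and 3, and its fold enrichment was 1.94, 1.61 and 1.51 times the median promoter of each list. The mean ratio was 1.68 ± 0.23 (SD, n = 3 clones) and the mean percentile 91.2 ± 2.3, the smallest spread of percentiles among the members. *Cdk4* (ENSMUSG00000006728.12) is a plus strand gene at chr10:127063534-127067920. Clone 2 had a single peak of 1959 bp over the start. Clones 1 and 3 each had a pair of peaks instead, from 127062851 to 127063370 and 127063479 to 127064733 in clone 1 and from 127062515 to 127063308 and 127063535 to 127064751 in clone 3. The gap between them falls on the bases just upstream of the start. In clone 3 the upstream peak was the stronger, with 111 reads against 70 at the start, while in clone 1 it had 44 against 165.

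Those bases are shown because they hold an unusual number of E-boxes, the letters CACGTG that MYC and other basic helix-loop-helix factors can bind. RefSeq promoter sequences (GRCm38.p6, 250 bases before to 50 after a start) were found for 7 of the 10 members. *Ccnd1*, *Ccnd2* and *Rb1* had no entry. The stretch of *Cdk4* before the first annotated exon, at chr10:127063285-127063533 on the plus strand, reads as follows, with each CACGTG in capitals.
Cdk4: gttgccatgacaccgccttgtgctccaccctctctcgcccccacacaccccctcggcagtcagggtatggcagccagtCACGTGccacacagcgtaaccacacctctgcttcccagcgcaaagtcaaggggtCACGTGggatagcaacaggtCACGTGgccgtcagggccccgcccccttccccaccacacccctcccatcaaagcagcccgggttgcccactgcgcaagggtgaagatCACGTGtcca

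There are 4 E-boxes in it, beginning 172, 118, 98 and 11 bases before the RefSeq start. The letters read the same on both strands. Of 32851 RefSeq promoters of the same length, 7.15% hold at least 1 and 8, or 0.0244%, hold 4 or more. The stretch was picked for its E-boxes from several motifs and members looked at, so this share describes it and is no test. In clone 2 the peak covered all 4 of them. In clone 1 those at 118 and 98 bases lay between the flanking peaks, and in clone 3 none of the 4 was under a peak. A run of letters is not a site that was seen bound, and binding was not measured here. Among the other members with an entry, *Cdk6* held 1 E-box and *Cdkn2c* 1.

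*Cdk6*, the other kinase, had a lower but wider promoter mark and the most peaks inside a gene. The promoter peak ran over 3584 bp in clone 1, 3752 bp in clone 2 and 3427 bp in clone 3, or 2.57, 2.52 and 2.73 times the median promoter. Its fold enrichment of 21.3, 39.9 and 6.92 was 1.13, 1.02 and 0.834 times that median. The peak spans 3341485, the outermost GENCODE start, and 3343893, the RefSeq start, so its width takes in a stretch between starts. *Cdk6* (ENSMUSG00000040274.11) is a plus strand gene at chr5:3341485-3531008.

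Within the 189.5 kb of *Cdk6* clones 1, 2 and 3 had 5, 12 and 7 body peaks. Overlapping peaks of different clones merged into 12 regions, of which 2 were found in all clones, 4 in a pair of clones and 6 in 1 clone. The stronger of the shared regions, from 3432772 to 3434414, had 57, 75 and 65 ChIP reads at its summit in clones 1, 2 and 3. Upstream of the gene a region from 3299960 to 3302439 had 62, 37 and 103 reads. Its fold enrichment was 14.2, 8.54 and 8.19, which was below that of the *Cdk6* promoter in clones 1 and 2 and above it in clone 3. Both regions lie more than 1 kb from any annotated start, and the 300 bases printed from each overlap no annotated exon. They are the only regions of *Cdk6* found in all clones and away from starts. Windows at such regions were kept for printing only if they held TGANTCA, so its presence in those shown follows from the choice. TGANTCA, the core letters of an AP-1 site, is in capitals. The windows are centred on the median summit of the clones, at chr5:3433097-3433396 in the gene and chr5:3300896-3301195 upstream, both on the plus strand of GRCm38.
Cdk6 intron: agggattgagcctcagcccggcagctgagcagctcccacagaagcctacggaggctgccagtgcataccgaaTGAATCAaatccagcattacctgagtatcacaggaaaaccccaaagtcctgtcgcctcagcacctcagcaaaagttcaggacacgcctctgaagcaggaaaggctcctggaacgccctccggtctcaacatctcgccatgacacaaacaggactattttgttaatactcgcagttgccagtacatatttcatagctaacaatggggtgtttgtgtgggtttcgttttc
Cdk6 upstream: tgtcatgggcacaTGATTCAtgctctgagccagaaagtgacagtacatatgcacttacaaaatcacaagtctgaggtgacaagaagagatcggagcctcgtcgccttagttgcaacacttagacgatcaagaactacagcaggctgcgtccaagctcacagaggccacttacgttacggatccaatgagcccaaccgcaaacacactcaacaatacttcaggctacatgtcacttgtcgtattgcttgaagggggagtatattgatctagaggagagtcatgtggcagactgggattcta

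TGANTCA occurred on either strand in 3 of the 13 such windows around members, both windows of *Cdk6* among them. It occurred in 11.5% of the 5359 windows of the same kind over the whole genome. CTTTGAT, the core letters of a TCF/LEF site, occurred in 1 of the 13, at *Cdkn1a*, and in 3.97% of all windows. Among promoters it occurred in 1 of the 10 RefSeq windows of members, that of *Cdk4*, and in 3.73% of all. Neither window of *Cdk6* holds CTTTGAT.

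**Figure D2:**
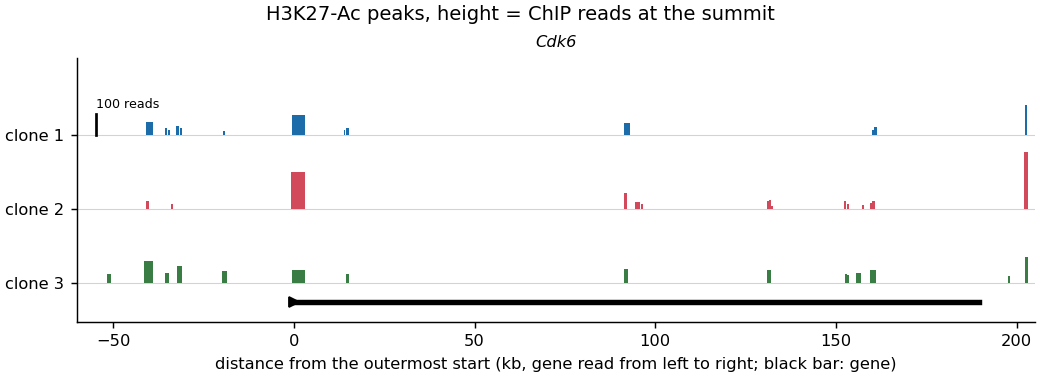
H3K27-Ac peaks around *Cdk6* in clones 1, 2 and 3 (rows) by distance from the outermost start in kb, with the height of each block giving the ChIP reads at the summit (scale bar 100 reads) and the black bar the gene. The wide promoter block is shared, and inside the gene 2 of 12 regions are found in all clones. The tall block past the end of the gene lies at the start of another gene.

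The D-type cyclin genes differed among themselves in where the mark lay. *Ccnd1*, a D cyclin gene induced by mitogens, is a minus strand gene (chr7:144929931-144939925). Its promoter peak had 84 ChIP reads in clone 1, 134 in clone 2 and 65 in clone 3, with fold enrichments of 19.7, 32.3 and 7.01. That put it at a percentile of 70.6 ± 5.4 by fold (SD, n = 3 clones) and 94.4 ± 1.6 by bases. Just upstream of the start a region from 144941006 to 144943616 had 94, 103 and 48 reads. Its highest fold enrichment was 19.2, 22.5 and 5.50, below that of the promoter peak in every clone. In clone 3 the peak with 48 reads had 3.95, and the 5.50 belonged to another peak of the region with 42 reads. A further shared region from 144964206 to 144965473 had 27, 64 and 38 reads. Inside the gene clone 2 alone had 3 of 4 regions, and clone 3 had none. Peaks covered 31.8%, 60.7% and 24.3% of the gene.

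*Ccnd2* had the fewest surrounding peaks among the cyclins. Its main promoter peak had 69, 264 and 87 reads, with the summit 1321, 1312 and 1456 bp inside the nearest start. The peak is also within 1 kb of a start of 9330179D12Rik, a non-coding RNA gene on the same stretch. Since peaks carry no strand, the part of either gene in it cannot be told apart. Clones 1, 2 and 3 had only 1, 4 and 1 distal peaks within 100 kb, and no distal region was shared by all clones. Its percentile by fold was 66.7 ± 5.5.

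*Ccnd3* has 19 annotated starts spread over its 94.6 kb on chromosome 17, and the mark lay at both ends of that range. Around the outermost start at 47505051 the peak had 137 reads in clone 1, 105 in clone 2 and 58 in clone 3. Around the inner starts near the 3′ end the strongest peak had 61, 158 and 49 reads. The outermost start thus had the higher peak in clones 1 and 3 and the inner starts in clone 2. An intronic region from 47511238 to 47512011 with 40, 73 and 41 reads was found in all clones. The bases before the outermost start, chr17:47504801-47505050 on the plus strand, lie under the peak in every clone and are given with GGGCGG, the GC box, in capitals on either strand.
Ccnd3: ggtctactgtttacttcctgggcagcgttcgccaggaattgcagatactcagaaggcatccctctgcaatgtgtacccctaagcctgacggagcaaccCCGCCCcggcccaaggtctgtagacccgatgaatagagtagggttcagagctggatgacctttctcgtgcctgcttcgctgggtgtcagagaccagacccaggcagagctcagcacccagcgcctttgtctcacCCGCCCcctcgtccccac

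The GC box, a common promoter element, was present in 7 of the 10 RefSeq promoter windows of members and in 35.7% of all of them. TTTNNCGC, core letters of an E2F site, was present only in the window of *Cdk6*, against 5.17% of all.

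Of the INK4 genes that remain, *Cdkn2c* was strongly marked and *Cdkn2d* weakly. *Cdkn2c*, a minus strand gene (chr4:109660876-109667189), encodes p18Ink4c. Its promoter peak had fold enrichments of 28.5, 61.9 and 6.03 in clones 1, 2 and 3. These were 1.51, 1.58 and 0.727 times the median promoter, so clone 3 fell below the line that the other clones exceeded. In clone 3 the promoter mark was also split into peaks of 1375 and 636 bp, where clones 1 and 2 had a single peak of 3185 and 2617 bp. *Cdkn2d*, which encodes p19Ink4d, is the smallest member gene with 2.998 kb at chr9:21288410-21291407. It had the lowest percentile by fold, 61.5 ± 3.4, and the lowest by bases, 59.4 ± 8.0. The promoter peak had 40 reads over 543 bp in clone 1, 144 reads over 1394 bp in clone 2 and 51 reads over 424 bp in clone 3. Relative to the nearest start its summit was at 241 and 271 bp in clones 1 and 2 and at −554 bp in clone 3, where no peak touched the gene. Upstream, regions at 21331306 to 21332381, with 31, 66 and 45 reads, and at 21332699 to 21334272, with 58, 125 and 105 reads, were found in all clones away from any start. They lie 39.9 and 41.3 kb from *Cdkn2d*, between regions at annotated starts of *Slc44a2*.

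Of the CIP/KIP genes, *Cdkn1a* was marked away from its outermost start and *Cdkn1b* had a domain reaching past its end. *Cdkn1a* encodes p21, an inhibitor induced by p53, and is a plus strand gene (chr17:29090976-29100727). Its promoter peak had 153, 219 and 82 reads in clones 1, 2 and 3, at 1.91, 1.29 and 1.06 times the median promoter. This peak did not lie at the outermost start. None of the 300 bases of the RefSeq window there was under a peak in any clone, and the summits fell 995, 1138 and 1009 bp past an inner start. It also lies within 1 kb of a start of AC167363.2, from which it cannot be told apart. Upstream, at the start of *Trp53cor1*, the lincRNA-p21 gene, a region from 29078103 to 29079822 had 116 reads in clone 1, 87 in clone 2 and 140 in clone 3. In clone 3 this upstream region was higher than the *Cdkn1a* promoter peak itself, and in clones 1 and 2 it was lower. Next to it, a region from 29080986 to 29082716 away from any start had 24, 79 and 64 reads.

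*Cdkn1b* encodes p27Kip1 and is a plus strand gene (chr6:134920401-134925513). Its promoter peak had 99 reads in clone 1, 288 in clone 2 and 65 in clone 3. The fold enrichments of 22.6, 63.0 and 3.51 were 1.20, 1.61 and 0.423 times the median promoter, the widest spread among the members. In clone 3 the local background at the summit was 5 reads, against less than 1 in clones 1 and 2. At a −log10 q of at least 5 the clone 3 peak was no longer counted. Just past the end of the gene, at the start of the non-coding RNA gene *Lockd*, a region from 134926497 to 134929601 had 119, 308 and 130 reads. Its fold enrichment was 27.1, 44.3 and 8.22, above that of the promoter peak in clones 1 and 3 and below it in clone 2. The bases before the start, chr6:134920151-134920400 on the plus strand, lay under the promoter peak in all clones and are shown with CCAAT, the letters that NF-Y binds, in capitals.
Cdkn1b: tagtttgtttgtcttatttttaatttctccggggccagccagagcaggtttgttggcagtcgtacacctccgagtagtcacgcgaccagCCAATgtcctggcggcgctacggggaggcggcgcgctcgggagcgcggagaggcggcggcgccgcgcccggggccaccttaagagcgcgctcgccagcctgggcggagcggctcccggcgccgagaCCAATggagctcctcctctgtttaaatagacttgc

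CCAAT occurred 3 times in the full window of *Cdkn1b* on either strand, 2 of them in the stretch shown. At least 3 occur in 3.37% of all RefSeq promoters, and at least 1 in 37.4%.

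*Rb1*, the substrate that restrains E2F factors, carried the mark at its start and little elsewhere within the gene. It is a minus strand gene (chr14:73183673-73325822). The peak at the outermost start had 114 reads over 1456 bp in clone 1, 228 over 1764 bp in clone 2 and 98 over 1219 bp in clone 3. Its fold enrichments of 16.4, 24.7 and 10.9 were 0.873, 0.628 and 1.31 times the median promoter, so *Rb1* was above the line in clone 3 only. A further peak with 92, 115 and 77 reads lies near an inner start of *Rb1*, but also at the start of *Lpar6*, a receptor gene within *Rb1*, and the genes cannot be told apart there. Peaks covered 2.6% ± 0.72 of the gene (SD, n = 3 clones), the lowest share among the members. Upstream, regions from 73387917 to 73389510 and from 73401247 to 73403445 had fold enrichments of 13.4 and 19.3 in clone 1, 5.16 and 6.07 in clone 2 and 11.2 and 8.56 in clone 3. The other region found in all clones away from starts, from 73370951 to 73371462, was weaker, with 4.26, 4.30 and 3.41. The stronger pair lies 62.1 and 75.4 kb from *Rb1*. Nearer to the gene than that pair, a region at the start of *Itm2b* had 204, 299 and 109 reads.

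**Figure D3:**
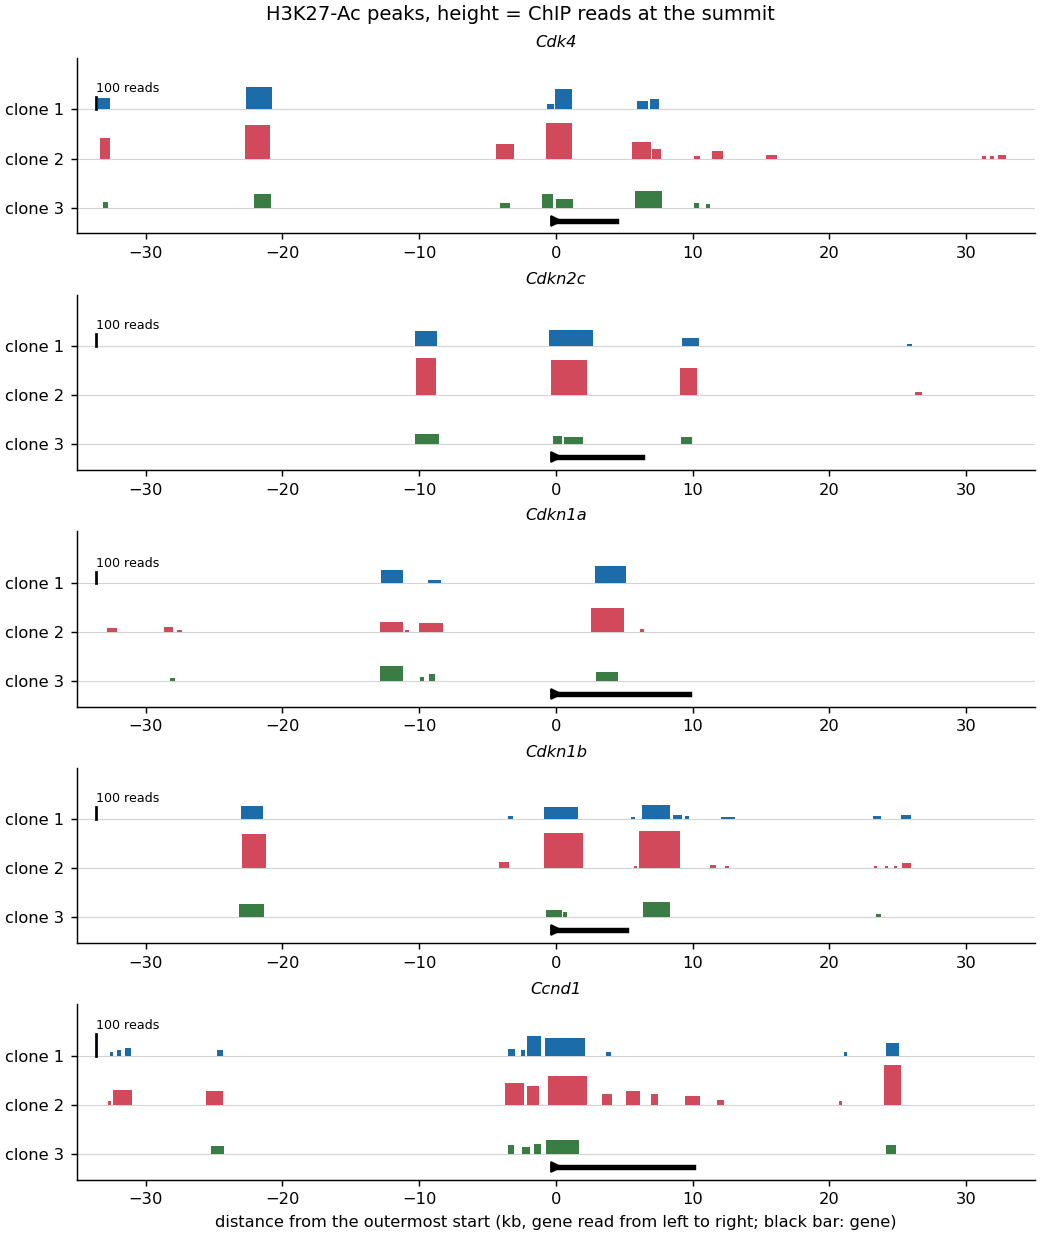
H3K27-Ac peaks within 35 kb of the outermost start of *Cdk4*, *Cdkn2c*, *Cdkn1a*, *Cdkn1b* and *Ccnd1* (panels) in clones 1, 2 and 3 (rows), by distance in kb with each gene read from left to right. Block height is the number of ChIP reads at the summit (scale bar 100 reads in each panel) and the black bar is the gene. *Cdkn1a* shows no block at its outermost start, and *Cdkn1b* a second tall block past its end with 119, 308 and 130 reads.

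Over all members, body peaks came to 10, 24 and 12 in clones 1, 2 and 3, or 15.3 ± 7.6 (SD, n = 3 clones) and 11 on average without clone 2. Only *Cdk6* and *Ccnd3* had a body peak in all clones, or 2 of 10 members against 10.9% of all genes. *Cdk4*, *Cdkn2c*, *Cdkn1a* and *Cdkn1b* had none in any clone. Merged over the clones there were 31 body regions, of which 3 were found in all clones and 14 in clone 2 alone.

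Distal peaks within 100 kb of a member numbered 75, 118 and 64 in clones 1, 2 and 3, or 85.7 ± 29 (SD, n = 3 clones) and 69.5 without clone 2. All 10 members had at least 1 in every clone, as did 73.2% of all genes. The median member had 8, 9 and 6 distal peaks and the median gene 3, 5 and 3. Many of them lie at the starts of neighbouring genes, and away from these 32, 69 and 26 were left. At *Cdk4* that applied to all 7 distal peaks of clone 1, 12 of 25 in clone 2 and 8 of 9 in clone 3. Of 128 distal regions 41 were found in all clones, 11 of these away from starts, and 55 in clone 2 alone.

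**Figure D4:**
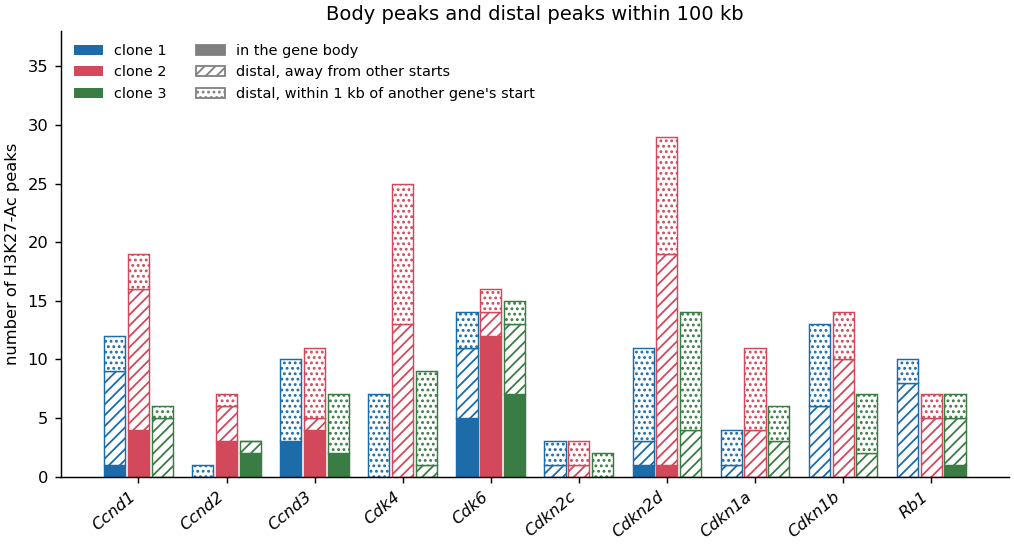
Number of H3K27-Ac peaks per member in clones 1, 2 and 3 (colours), with peaks in the gene body filled, distal peaks within 100 kb and away from other starts hatched, and distal peaks within 1 kb of another gene's start dotted. *Cdk6* has the most body peaks with 5, 12 and 7, and clone 2 has the tallest bar for *Cdk4* and *Cdkn2d*, with 25 and 28 distal peaks.

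Joining peaks over gaps up to the distance named above the plot of domain percentiles, and ranking the domains of a clone by the bases under peaks, put no member into the top 5% in all 3 clones, where 2.29% of all genes were. Taken by clone, 3, 4 and 2 members were in it, where 5.16%, 10.3% and 4.48% of all genes were. Genes without a promoter or body peak have no domain and count among all genes. These shares are therefore also too low a yardstick for the members, all of which had a promoter peak. Which members counted depended on the clone. *Cdkn1b* had rank 263 among 14560 domains of clone 1 and rank 691 among 18280 of clone 2, in domains of 29.4 and 30.1 kb that included the start of *Lockd*. In clone 3, where 9.04 kb were joined, again with a peak at the start of *Lockd*, it had rank 1383 among 16371. *Cdk4* was in the top 5% in clones 2 and 3 and *Cdkn2c* in clones 1 and 3. *Ccnd3* was in it in clones 1 and 2, through a domain at the outermost start in clone 1 and at the inner starts in clone 2. The former also held the start of *Taf8*, and the latter those of *Bysl*, *Med20* and *Gm20517*. *Ccnd1* reached it in clone 2 only, with a domain of 28.9 kb that took in the start of *LTO1*, against 7.49 and 5.19 kb in clones 1 and 3. Leaving out clone 1 gave 1 member in the top 5% of both remaining clones (*Cdk4*), leaving out clone 2 gave 1 (*Cdkn2c*) and leaving out clone 3 gave 2 (*Ccnd3* and *Cdkn1b*).

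*Cdkn1a* had the steadiest domain, with percentiles of 93.6, 94.1 and 94.2 and lengths of 17.9, 19.3 and 17.4 kb, and no other protein-coding start in it. The domain of *Cdkn2c* was also of even length, 20.8, 20.6 and 20.3 kb, and reached the start of *Faf1*. That of *Cdk4* held the start of *Tspan31* in all clones and those of *March9* and *Agap2* in clones 2 and 3. The *Cdk6* domain held no other protein-coding start and measured 15.7, 3.75 and 15.6 kb. *Cdkn2d* shared its domain with *Kri1*, and in clone 2 also with *Atg4d*, and varied most, with percentiles of 73.3, 93.1 and 37.4.

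**Figure D5:**
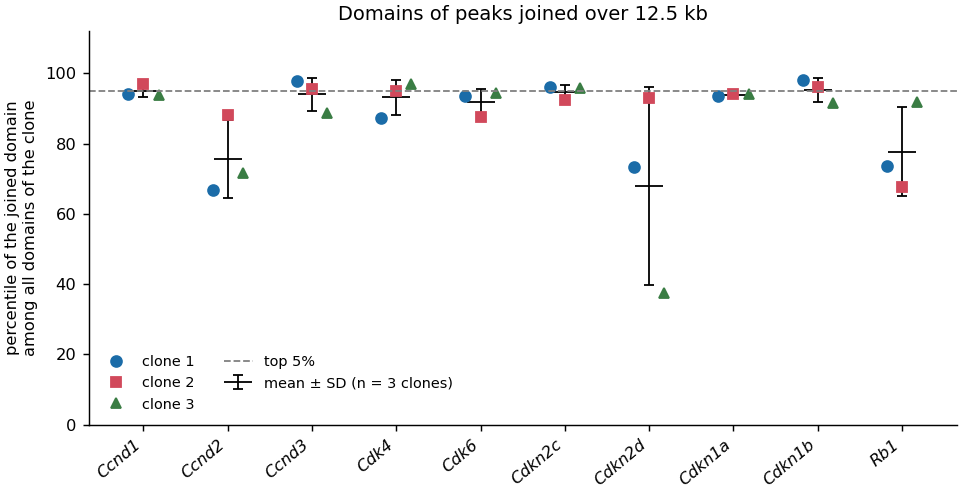
Percentile of the joined domain of each member among all domains of its clone, by bases under peaks (y axis, percent). Points are clones 1 to 3, the black bar and whiskers are mean ± SD over 3 clones and the dashed line marks the top 5%. No member lies above the line in all clones, and *Cdkn2d* has the widest spread, from 37.4 to 93.1.

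Among the other genes of the G1 pathway, 34 of 39 had a promoter peak in all clones, where 46.5% of all genes did. The genes with none in any clone were the CDK inhibitor genes *Cdkn2a*, *Cdkn2b* and *Cdkn1c*, and *Lef1*, a WNT effector. Of the 7 INK4 and CIP/KIP inhibitor genes, the 4 members had a promoter peak throughout and the other 3 in no clone. *Cdkn2a* and *Cdkn2b* are disrupted in every clone, so their missing promoter peaks cannot be told apart from the knockout. *Cdkn1c* was not targeted and is not on the list of members. Of the targeted genes, *Cdkn2a* had 1, 2 and 2 body peaks in clones 1, 2 and 3, so part of that locus was present and marked. *Lin37*, a subunit of the DREAM complex, had a promoter peak in clones 1 and 2 only, with 37 and 36 reads. All 10 genes for E2F and DP factors, both other pocket protein genes and all 5 genes of the S phase cyclins, their kinase and its phosphatase had one in all clones. The highest mean percentiles by fold were those of *Tfdp1*, the DP partner of E2F factors, with 98.8, and of *Rbl2*, a relative of *Rb1*, with 93.7. Both lie on chromosome 8, whose local background at peaks was 1.38, 1.37 and 1.42 times that of the median autosome in clones 1, 2 and 3, with that of clone 2 from an unknown control, and the part of this in the percentiles was not tested. The lowest with peaks were *Lin37* with 31.9 and *Ccne1*, a cyclin that activates CDK2, with 56.4. The median over the 39 genes was 75.2, against 73.7 over the 10 members.

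Ranked by mean percentile of fold, *Cdk4* (91.2) was followed by *Cdkn1a* (84.1), *Cdkn2c* (80.1), *Ccnd3* (75.3), *Cdkn1b* (74.1), *Cdk6* (73.3), *Rb1* (72.3), *Ccnd1* (70.6), *Ccnd2* (66.7) and *Cdkn2d* (61.5). No neighbours in this order differed by more than the larger of their SDs over the clones. With 3 clones of 1 genotype there is no test between groups, and a peak shows where reads were enriched, not how much of a gene was transcribed.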

How the data were processed

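H3K27-Ac and IgG libraries were assigned to clones by their labels. According to the submitters' processing notes the authors used Bowtie2, GRCm38 and MACS2 2.1.1. Each clone has its own list, clone 3 from 2 pooled libraries. Peak names show that reads of clones 1 and 2, but not of clone 3, had been checked for allelic mapping bias. In the deposited lists each peak has a position, a ratio (fold enrichment of the scaled ChIP pileup over the local background, each plus 1) and the −log10 of its p-value and q-value. The number of clones limits the precision, and p-values between samples were not computed.

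ChIP reads and background at each summit were solved from the deposited fold enrichment and −log10 p, which form a Poisson tail, and came out whole to within 0.00108 read. The solution and the peak classes were tested on simulated data. The tools were matplotlib 3.10.9, scipy 1.17.1, Python 3.11.15 and, for tables and arrays, pandas 2.3.3 and numpy 2.4.6. Peaks outside chromosomes 1 to 19, X and Y (5, 21 and 3) were left out. Genes and starts were those of GENCODE M21 on GRCm38, and coordinates count from 1. A promoter peak lies within 1 kb of any start of the gene, a body peak elsewhere on the gene, and a distal peak outside it within 100 kb, by an overlap of at least 1 bp. Percentiles are among 21938 protein-coding genes, with genes without a promoter peak at 0. All members were named, with other pathway genes that had no promoter peak, differed between clones or were highest or lowest, and genes with a start in a member's domain. The members and lists were chosen with earlier results of these data known.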

Additional observations from a re-analysis of the deposited data

How the results depend on the processing

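Over 38 alternatives to 5 results, 28 stayed within the SD over clones or, for counts, within 1.5 times, among them all those for promoter peaks (7 members with a peak over a start base, 9 at a −log10 q of at least 5) and for body peaks. Some of the 28 could not have come out otherwise. The promoter count could not fall below 10 with a window of 2 kb or with a clone left out. With a clone left out, the mean percentile cannot move by as much as the SD of the same 3 clones. The median percentile of the members rose from 73.4 to 92.6 with bases under peaks in place of fold enrichment. Of the measures added after this was seen, the width of the strongest promoter peak gave 90.8 and bases at the outermost start 86.4. The distal count fell from 85.7 to 54.7 per clone within 50 kb and to 42.3 away from starts of other genes, as both count fewer peaks. The number of members in a top 5% domain in all clones went from 0 to 1 with peaks joined over 5 kb (*Ccnd1*) and to 1 with summed ChIP reads (*Cdk4*); the cause was not tested. Leaving out each clone gave 10 members with a promoter peak, as it had to. It gave median percentiles of 70.3 to 75.5, 11 to 18 body peaks, 69.5 to 96.5 distal peaks and 1 to 2 members in a top 5% domain. Sites under 13, 12 and 25 reads are not listed, so an absent peak is not an absent mark. Only clone 3 pools libraries. No paired analysis was possible because there is 1 condition and the IgG libraries have no list of their own.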
